A study of Saccharomyces cerevisiae with 5 samples.

Results

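Lysine biosynthesis in budding yeast is represented here by 9 genes, the enzyme genes LYS20, LYS21, LYS4, LYS12, LYS2, LYS5, LYS9 and LYS1 and the activator gene LYS14. They were taken by name from the pathway, and each had 1 probe set annotated to that gene alone, so that 9 of 9 genes were found among 5656 genes on the array. Their transcripts were followed in 2 groups of Saccharomyces cerevisiae cultures. The Δrsf2 group (2 biological replicates) was an isogenic derivative of BY4741 that lacks RSF2 (YJR127C, also called ZMS1), a gene for a zinc-finger protein. The wild-type group (3 biological replicates) was the parent strain BY4741, a haploid laboratory strain of mating type a with deletions in HIS3, LEU2, MET15 and URA3, which the mutant shares. BY4741 is not a lysine auxotroph: its LYS2 gene is intact, unlike that of the sister strain BY4742. The sample names and the design text give growth of both groups in rich medium with glycerol as the only carbon source to an A600 of 0.6. A treatment text shared by all 5 samples also describes a transfer of dextrose-grown cells to glycerol medium for a time in minutes, which no sample states, and the values cannot tell these histories apart. Poly(A) RNA of each culture was hybridised to 1 Affymetrix array. The labels name neither the number of mutant clones nor the marker used for the deletion.

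Fungi make lysine by the aminoadipate route, which differs from the diaminopimelate route of bacteria and plants. In its first arm 2-oxoglutarate and acetyl-CoA are joined to homocitrate and carried, by steps that parallel the conversion of citrate to 2-oxoglutarate in the tricarboxylic acid (TCA) cycle, to 2-oxoadipate, which a transaminase turns into 2-aminoadipate. In the second arm aminoadipate is reduced, joined to glutamate as saccharopine and cleaved to lysine. Lysine inhibits the first enzyme, and Lys14 activates transcription of several LYS genes when the intermediate aminoadipate semialdehyde is present.

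The deposited signals were scaled to a common 2% trimmed mean of 500 (arbitrary units), since 1 array, Δrsf2 replicate 1, had been deposited with a trimmed mean of 100.1 and the other 4 with 500.3 to 500.7. RSF2 checked the labels: its scaled signal was 9.49 and 3.3 in the Δrsf2 arrays, against 204, 254 and 416 in the wild type. With signals under a floor of 28.1 set to that floor, the RSF2 transcript was at least 9.9-fold lower in Δrsf2. The arrays fell into sets that the labels do not name. The CreX spike-in control read 59709 in the first Δrsf2 array and 56025 in the first wild-type array, called the high spike-in set below. It read 2715 in the other Δrsf2 array and 9393 and 3417 in the other wild-type arrays, the low set. Bright probe sets also read higher in the high set, where the 99th percentile of single-gene signals was 16920 and 17040, against 7074, 7416 and 5748 in the low set. ACT1 probe sets at the 3' end read higher than those at the 5' end, a measure of RNA integrity, with a 3'/5' ratio of 4.91 and 1.55 in Δrsf2 and 2.76, 2.28 and 1.69 in the wild type. Of the strain markers, URA3 read 8.49 and 0.999 in Δrsf2 and 3.4, 0.899 and 0.4 in the wild type, LEU2 read 207 and 21.9 in Δrsf2 and 30.5, 11.9 and 11.7 in the wild type, and MET15 (listed as MET17) read 62.4 and 16.3 in Δrsf2 and 18.9, 4.8 and 2 in the wild type. LEU2 and MET15 were thus both highest in Δrsf2 replicate 1. HIS3, which is only partly deleted in BY4741, read 110 and 682 in Δrsf2 and 476, 310 and 361 in the wild type. The part of these array differences in the values below was not tested beyond the within-set values given.

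No lysine gene passed the test of Δrsf2 against the wild type. By value 8 of the 9 genes were higher in Δrsf2 and LYS5 alone was lower, with a median log2 difference of 0.27, while 47.7% of all 4242 genes tested were higher, 52.3% were lower and their median was -0.03. The activator gene LYS14 (log2 difference 1.52), the saccharopine-forming enzyme gene LYS9 (0.54) and the homocitrate synthase gene LYS21 (0.24) were the members whose Δrsf2 arrays both lay above every wild-type array. That is 3 of 9 members, beside 6.74% of all genes tested. In the other direction 0 of 9 members did not overlap, beside 8.25% of all genes. LYS20 and LYS5 had large differences between the Δrsf2 arrays themselves.

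All 9 members passed the filter on low signals (a mean over the 5 arrays of at least 129 on the log scale). In the limma fit over 4242 genes, 0 of 9 members and 0% of all genes had an adjusted p under 0.05, and the smallest adjusted p of any gene was 0.177. The adjusted p of every lysine gene was 1. At an unadjusted limma p under 0.05 the count was 0 of 9 members and 3.23% of all genes, with LYS14 nearest at 0.0509. An exact permutation test of 2 against 3 arrays has 10 splits and cannot give a two-sided p below 0.1. The median SE of the members was 0.53 on the log2 scale, and none of their 95% intervals left out 0.

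**Figure D1:**
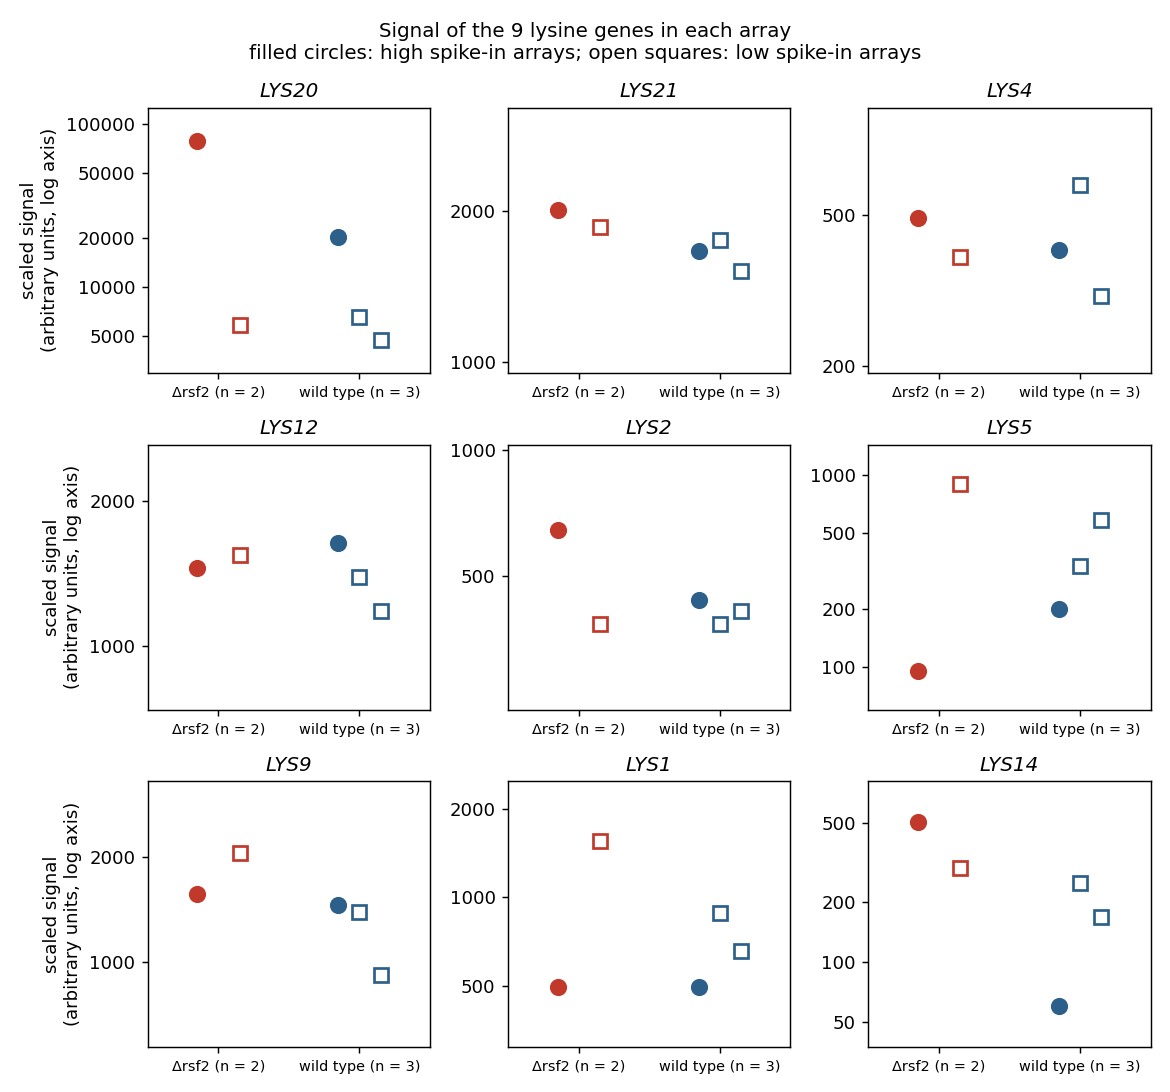
Scaled signal (arbitrary units, log axis) of each lysine gene in the 2 Δrsf2 arrays (red, left) and the 3 wild-type arrays (blue, right), 1 point per array; filled circles are the high spike-in arrays and open squares the low ones. The groups do not overlap for LYS21, LYS9 and LYS14, and LYS20, LYS5 and LYS1 are spread most widely in Δrsf2.

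The first step is catalysed by 2 homocitrate synthases, the closely related isozymes Lys20 and Lys21. LYS20 (YDL182W) had signals of 78815 and 5896 in Δrsf2, against 20215, 6541 and 4765 in the wild type. The group means were 42360 ± 51600 (SD, n = 2) in Δrsf2 and 10510 ± 8450 (SD, n = 3) in the wild type. Only Δrsf2 replicate 1 lay above the wild-type range, and Δrsf2 replicate 2 lay inside it. The log2 difference of the fit was 1.33 ± 1.15 (SE), and its 95% interval ran from -1.19 to 3.85. It was 1.96 within the high spike-in set and 0.08 within the low set, and without Δrsf2 replicate 1 it was -0.54.

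LYS20 stood near the top of every array, at the 99.9th and 98.1st percentile of single-gene probe sets in Δrsf2 and at the 99.3rd, 98.5th and 98.1st in the wild type. Its signal was higher in every high spike-in array than in every low one, and whether its brightness accounts for this was not tested. When the arrays were quantile normalised, which gives them all 1 distribution of signals, LYS20 read 31824 and 7921 in Δrsf2 and 12626, 8648 and 7663 in the wild type, with a log2 difference of 0.75 ± 0.58 (SE) and a limma adjusted p of 0.967. A further probe set annotated to both LYS20 and LYS21, which cannot be assigned to either, read 10268 and 5135 in Δrsf2 and 11214, 4527 and 3834 in the wild type. On that probe set Δrsf2 replicate 1 lay below wild-type replicate 1, by -0.13 within the high set, where the LYS20 probe set differed by 1.96.

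**Figure D2:**
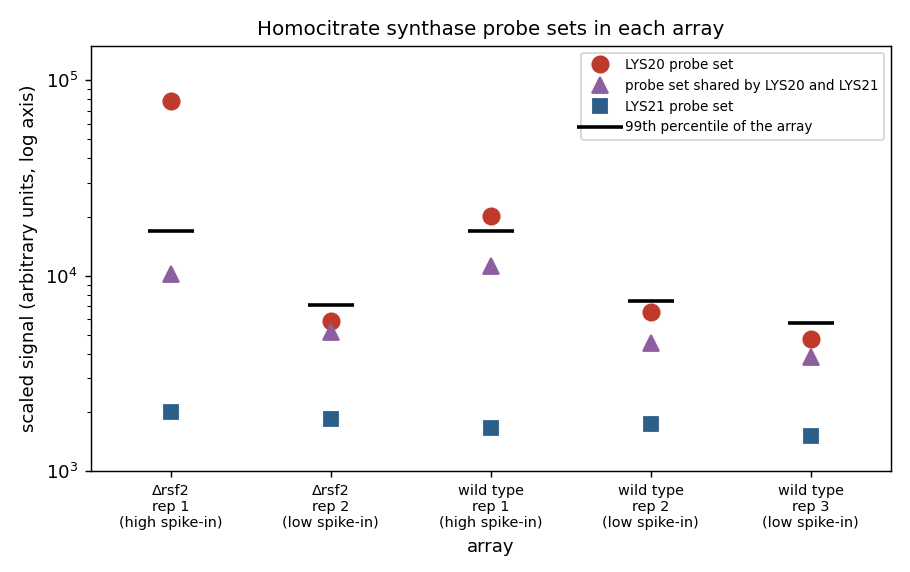
Scaled signal (arbitrary units, log axis) in each array of the LYS20 probe set, the probe set shared by LYS20 and LYS21, the LYS21 probe set and, as a black bar, the 99th percentile of all single-gene probe sets. The LYS20 point of 78815 in Δrsf2 replicate 1 is far above the 99th percentile of that array (16920), while the shared probe set reads 10268 there.

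LYS21 (YDL131W) was among the steadiest members. Its signals were 2016 and 1857 in Δrsf2, against 1664, 1751 and 1521 in the wild type, with means of 1937 ± 113 (SD, n = 2) in Δrsf2 and 1646 ± 117 (SD, n = 3) in the wild type. Both Δrsf2 arrays were above the highest wild-type array. The difference was small, 1.18-fold by geometric mean, with a log2 difference of 0.24 ± 0.42 (SE) and an interval of -0.68 to 1.15. It was 0.28 within the high spike-in set and 0.19 within the low set. By rank within its array the groups overlapped, since LYS21 stood at the 90.1st percentile in both Δrsf2 replicate 2 and wild-type replicate 2.

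Lys4 and Lys12 continue the first arm. LYS4 (YDR234W), the iron-sulfur enzyme homoaconitase, had signals of 492 and 389 in Δrsf2, against 406, 602 and 307 in the wild type. Both Δrsf2 arrays lay inside the wild-type range, and the log2 difference was 0.05 ± 0.53 (SE), with an interval of -1.11 to 1.22. LYS12 (YIL094C), homoisocitrate dehydrogenase, had signals of 1454 and 1542 in Δrsf2, against 1631, 1393 and 1184 in the wild type. Both Δrsf2 arrays lay between the lowest and the highest wild-type array, and the log2 difference was 0.11 ± 0.42 (SE), with an interval of -0.81 to 1.02. The sign of LYS4 differed between the spike-in sets, at 0.28 in the high and -0.15 in the low set, and so did that of LYS12, at -0.17 and 0.26.

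The second arm opens with the aminoadipate reductase Lys2, which works only after Lys5 has attached a phosphopantetheine group to it. LYS2 (YBR115C) had signals of 644 and 383 in Δrsf2, against 438, 384 and 413 in the wild type. Its wild-type arrays were close together, with an SD of 0.09 on the log2 scale, and Δrsf2 replicate 2 was just under the lowest of them while Δrsf2 replicate 1 was above all. The log2 difference was 0.27 ± 0.51 (SE), and it was 0.56 within the high spike-in set and -0.06 within the low set.

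LYS5 (YGL154C), the phosphopantetheinyl transferase, had signals of 95.9 and 901 in Δrsf2, against 200, 335 and 584 in the wild type. The lowest and the highest of the 5 arrays were thus both Δrsf2. The SD within Δrsf2 was 2.29 on the log2 scale, against 0.77 in the wild type. The log2 difference was -0.21 ± 0.86 (SE), with -1.06 within the high spike-in set and 1.03 within the low set, so no direction can be given for LYS5.

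LYS9 (YNR050C) encodes the saccharopine dehydrogenase that joins aminoadipate semialdehyde to glutamate. Its signals were 1563 and 2046 in Δrsf2, against 1454, 1386 and 917 in the wild type, with means of 1804 ± 341 (SD, n = 2) in Δrsf2 and 1253 ± 292 (SD, n = 3) in the wild type. Every Δrsf2 array lay above every wild-type array, by signal and also by rank within the array, at the 90.7th and 90.9th percentile in Δrsf2 against the 88.2nd, 87.4th and 78.8th in the wild type. The log2 difference was 0.54 ± 0.44 (SE), with an interval of -0.41 to 1.5, and it was 0.10 within the high spike-in set and 0.86 within the low set. Leaving out wild-type replicate 3 gave 0.33, and leaving out Δrsf2 replicate 2 gave 0.35.

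LYS1 (YIR034C) encodes the saccharopine dehydrogenase that releases lysine in the last step. Its signals were 495 and 1547 in Δrsf2, against 496, 882 and 658 in the wild type. Replicate 1 of Δrsf2 read almost the same as wild-type replicate 1, and replicate 2 was above the wild-type range. The log2 difference was 0.41 ± 0.55 (SE), with an interval of -0.80 to 1.62. Without Δrsf2 replicate 2 it was -0.41 and without Δrsf2 replicate 1 it was 1.23.

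LYS14 (YDR034C), the zinc-cluster activator of the pathway, had the largest log2 difference of the 9 genes in the fit to all 5 arrays. The order of LYS14 and LYS20 turned in other settings: with wild-type replicate 1 left out LYS20 was at 1.95 and LYS14 at 0.93, with Δrsf2 replicate 2 left out LYS20 was at 3.20 and LYS14 at 1.89, and with array weights LYS20 was at 1.73 and LYS14 at 0.83. The LYS14 signals were 503 and 297 in Δrsf2, against 59.7, 248 and 167 in the wild type, with means of 400.1 ± 145 (SD, n = 2) in Δrsf2 and 158.3 ± 94.5 (SD, n = 3) in the wild type. The groups did not overlap, but the lower Δrsf2 array and the highest wild-type array, 297 and 248, were close. The log2 difference was 1.52 ± 0.70 (SE), or 2.86-fold, with an interval of -0.01 to 3.04, and 99.3% of the genes tested had a lower difference. LYS14 was the only member at least 2-fold higher with no overlap between the groups, as were 1.77% of all genes, and 0 of 9 were as much lower, beside 2.73%.

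The lowest LYS14 reading was in wild-type replicate 1. It stood at the 22.3rd percentile of that array, against the 47.8th and 32.2nd in the other wild-type arrays and the 72.1st and 52.9th in Δrsf2. Without wild-type replicate 1 the log2 difference was 0.93. Within the high spike-in set, where that array is the only wild-type one, it was 3.07, and within the low set 0.55. Quantile normalisation gave 1.5 ± 0.58 (SE), with a limma adjusted p of 0.914.

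**Figure D3:**
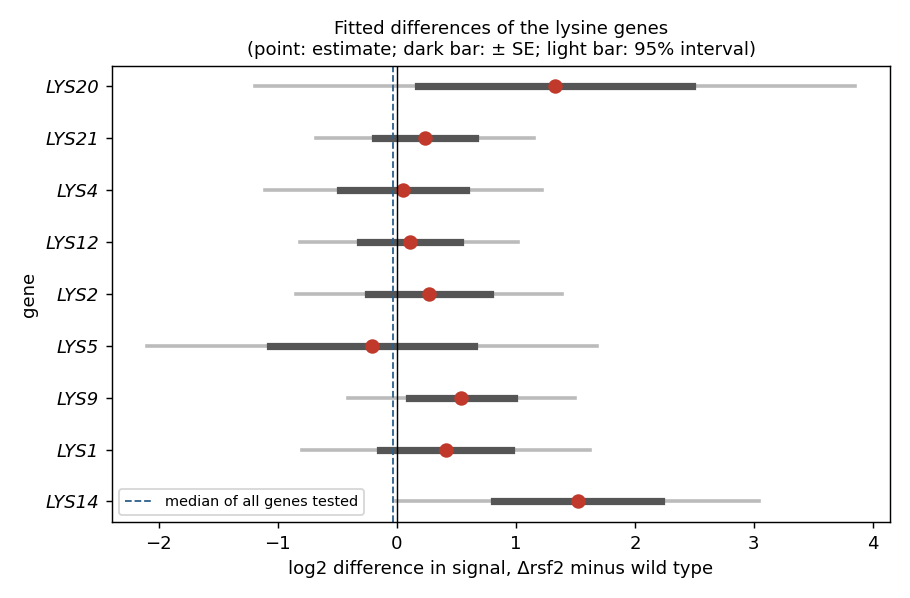
Fitted log2 difference in signal (Δrsf2 minus wild type) of each lysine gene from the limma fit over all 4242 genes; the point is the estimate, the dark bar ± SE and the light bar the 95% interval. All 9 intervals include 0, with LYS14 nearest to leaving it out at -0.01 to 3.04.

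The Δrsf2 arrays placed different members outside the wild-type range. In Δrsf2 replicate 1, LYS20, LYS21, LYS2, LYS9 and LYS14 were above every wild-type array (5 of 9, beside 24.8% of all genes tested), and LYS5 and LYS1 were below (2 of 9, beside 30.3%). In Δrsf2 replicate 2, LYS21, LYS5, LYS9, LYS1 and LYS14 were above (5 of 9, beside 28.4%), and LYS2 was below (1 of 9, beside 26%). LYS1 in Δrsf2 replicate 1 (495 against 496 in wild-type replicate 1) was only just below. So was LYS2 in Δrsf2 replicate 2 (383 against 384 in wild-type replicate 2). The median of the members relative to the wild-type mean was 0.30 in Δrsf2 replicate 1 and 0.18 in replicate 2, against 0.02, 0.09 and -0.11 in the wild-type arrays. The corresponding medians of all genes tested were -0.08 and 0.02 in Δrsf2 and -0.33, 0.08 and 0.24 in the wild type, so wild-type replicate 1 read low for most genes. Measured within the spike-in sets, the members' median difference was 0.28 in the high and 0.26 in the low set, against 0.21 and -0.11 for all genes.

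By arm of the pathway, the 4 genes of the first arm had a median log2 difference of 0.17 and the 4 of the second arm 0.34. The first-arm median was 0.26 and 0.02 in the Δrsf2 arrays, against 0.12, 0.05 and -0.34 in the wild-type arrays, each relative to the wild-type mean. The second-arm median was -0.03 and 0.98 in Δrsf2, against -0.16, 0.08 and 0 in the wild type, so the higher value of the second arm came from Δrsf2 replicate 2 alone. The spread between the Δrsf2 replicates exceeded the difference between the arms.

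Some members differed between the spike-in sets, whatever the genotype, as did many of all genes tested. LYS20 and LYS2 were higher in every high-set array than in every low-set array (2 of 9, beside 9.74% of all genes tested), and LYS5 and LYS1 were lower (2 of 9, beside 30.5%). In all, 4 of 9 members did not overlap between the sets, a share near the 40.2% of all genes tested.

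**Figure D4:**
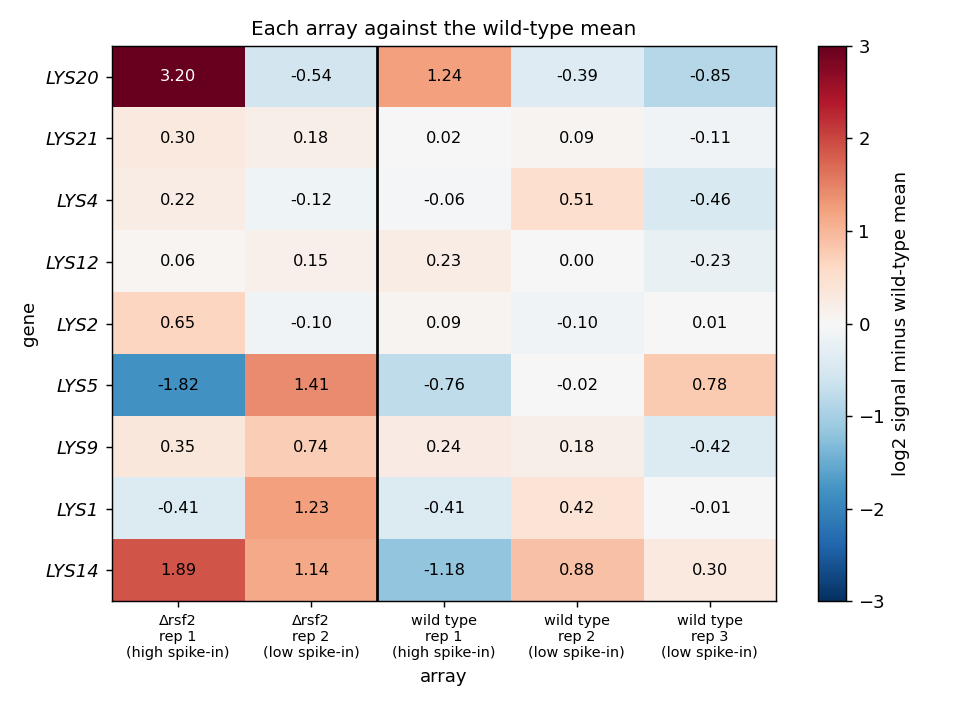
Log2 signal of each lysine gene minus its wild-type mean, in the 2 Δrsf2 arrays (left of the black line) and the 3 wild-type arrays; red is above and blue below that mean. LYS21, LYS12, LYS9 and LYS14 are above it in both Δrsf2 arrays, while LYS20, LYS4, LYS2, LYS5 and LYS1 differ in sign between them.

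Ratios within an array show whether members changed unequally, and a single scaling factor per array cancels in them. The log2 ratio of LYS20 to LYS21, set to a wild-type mean of 0, was 2.90 and -0.72 in Δrsf2, against 1.22, -0.48 and -0.74 in the wild type. It was high in the high spike-in set of both genotypes, and the exact permutation p (two-sided) for genotype was 0.6. Of 7 such ratios, LYS20 to LYS21 and each of the 6 later enzymes to the mean of both synthases, none had an exact permutation p below 0.5, and after Benjamini-Hochberg adjustment over the 7 each was 0.8. Quantile normalisation, which changes bright and dim signals by different factors, moved these ratios. LYS20 to LYS21 was then 1.25 and -0.37 in Δrsf2, against 0.35, -0.19 and -0.16 in the wild type, and the lowest exact permutation p of the 7 was 0.4, with each adjusted p at 1.

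Around the pathway, none of the genes that feed it with carbon and nitrogen passed the limma threshold, beside 0% of all genes tested. Of the 9 genes that make 2-oxoglutarate from acetyl-CoA and oxaloacetate or from isocitrate, 6 were lower and 3 higher by value, where 52.3% of all genes tested were lower, with a median log2 difference of -0.32. Relative to the wild-type mean, the median of this list was -0.80 in Δrsf2 replicate 1 and -0.06 in replicate 2, against -0.25, 0.20 and -0.02 in the wild type. IDH1, a subunit of the NAD-dependent isocitrate dehydrogenase of the TCA cycle, which parallels Lys12, had signals of 930 and 680 in Δrsf2, against 1802, 2570 and 2118 in the wild type. Its log2 difference was -1.43 ± 0.43 (SE), with an unadjusted limma p of 0.00621 and an adjusted p of 1. The other subunit gene IDH2 was at -1.73 ± 0.76, with signals of 474 and 4048 in Δrsf2, against 6332, 3601 and 4231 in the wild type. The IDH2 groups overlapped, since Δrsf2 replicate 2 lay inside the wild-type range. Within the high spike-in set IDH2 was at -3.74, and within the low set at 0.05. CIT3, a mitochondrial citrate synthase, was at -0.80 ± 0.50, and IDP2, the cytosolic NADP-dependent isocitrate dehydrogenase, at 0.48 ± 0.55. The difference between LYS12 (0.11) and IDH1 (-1.43) was not tested.

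Glutamate gives the amino group for aminoadipate and takes part again in the saccharopine step. GDH1, the main NADP-dependent glutamate dehydrogenase, had signals of 339 and 193 in Δrsf2, against 1292, 1358 and 2041 in the wild type, a log2 difference of -2.58 ± 0.47 (SE). Its groups were far apart, and its limma adjusted p was 0.18. Its isozyme gene GDH3 was at -1.28 ± 0.71, the glutamate-degrading enzyme gene GDH2 at -0.30 ± 0.51, the glutamate synthase gene GLT1 at 0.67 ± 0.64 and the glutamine synthetase gene GLN1 at 0.03 ± 0.42. These 5 genes had 3 lower and 2 higher by value, where 52.3% of all genes tested were lower, and a median of -0.30. The sign rested on Δrsf2 replicate 1, without which the median was 0.07.

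The partners of the pathway were lower by value in 4 of 4 genes tested, beside 52.3% of all genes tested. The median log2 difference of these partners was -0.37. ODC1, a mitochondrial carrier that exports 2-oxoadipate and 2-oxoglutarate, had signals of 1656 and 959 in Δrsf2, against 3248, 2348 and 1751 in the wild type. Its groups did not overlap, although 1656 and 1751 were close, and the log2 difference was -0.91 ± 0.47 (SE), with an adjusted p of 1. The second carrier gene ODC2 was at -0.31 ± 0.69. It read 475 and 109 in Δrsf2, against 239, 368 and 253 in the wild type. The sign of ODC2 differed between the spike-in sets, at 0.99 in the high and -1.49 in the low set. The transaminase genes ARO8 and ARO9, of which ARO8 also acts on 2-oxoadipate, were at -0.43 ± 0.43 and -0.16 ± 0.52.

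Lysine is used by the lysyl-tRNA synthetases. KRS1, the cytosolic enzyme, had signals of 616 and 569 in Δrsf2, against 1033, 1018 and 987 in the wild type, with a log2 difference of -0.77 ± 0.42 (SE) and -0.75 within the high set and -0.82 within the low set. MSK1, the mitochondrial enzyme, was at -1.5 ± 0.75, and read 37 and 183 in Δrsf2, against 132, 249 and 384 in the wild type. The MSK1 groups overlapped, and the reading of 37, in Δrsf2 replicate 1, was near the floor of 28.1. Within the high set MSK1 was at -1.84 and within the low set at -0.75. For KRS1 and MSK1 alike the limma adjusted p was 1.

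Regulators and transporters showed no common direction. Of 8 regulator genes 6 were tested, 2 higher and 4 lower by value, where 52.3% of all genes tested were lower. The regulator median was -0.12, or 0.16 without Δrsf2 replicate 2. GCN4, the activator of amino acid synthesis genes, which is controlled mainly at translation, was at 0.16 ± 0.71 (SE), GCN1 at -0.15 ± 0.64, GCN20 at -0.24 ± 0.53 and the retrograde signalling gene RTG2 at -0.52 ± 0.70. Of 11 genes for transport of basic amino acids 10 were tested, 4 higher and 6 lower, beside the same 52.3% of all genes lower. The transport median was -0.07, or 0.74 when Δrsf2 replicate 1 was left out. LYP1, the lysine permease of the plasma membrane, had signals of 812 and 1414 in Δrsf2, against 1329, 1532 and 1330 in the wild type, a difference of -0.38 ± 0.44. The arginine permease gene CAN1 was at -0.41 ± 0.59, and the vacuolar transporter genes VBA1 and RTC2 at 0.48 ± 0.61 and 0.33 ± 0.49. SOD1 and its copper chaperone gene CCS1, without which yeast needs added lysine in air, were at 0.41 ± 0.82 and -0.21 ± 0.51.

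In arginine synthesis and among further targets of Gcn4 no gene passed the limma threshold, beside 0% of all genes tested. Arginine synthesis, with 6 of 10 genes tested, had 4 higher and 2 lower by value, where 47.7% of all genes tested were higher. Its median was 0.12, with CPA1 at 0.65 ± 0.70 (SE), ORT1 at 0.53 ± 0.59, ARG1 at 0.18 ± 0.59 and ARG4 at 0.06 ± 0.47. Of 20 further targets of Gcn4, 7 were higher and 13 lower, where 52.3% of all genes tested were lower. Their median was -0.11, or 0.10 when Δrsf2 replicate 1 was left out. The groups did not overlap for 5 of these 20, 2 higher and 3 lower, beside 15% of all genes in either direction. HIS1 was at -1.41 ± 0.60, THR1 at -1.06 ± 0.46, ASN1 at -1.28 ± 0.77 and ILV1 at -0.82 ± 0.55, and the limma adjusted p of each was 1. Within the high and the low spike-in set HIS1 was at -0.84 and -2.03 and THR1 at -1.19 and -1.17. By the same sets ASN1 was at 1.17 and -3.24, so its sign differed, and ILV1 at -1.66 and -0.05. Whether the lysine genes differ from these lists was not tested.

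**Figure D5:**
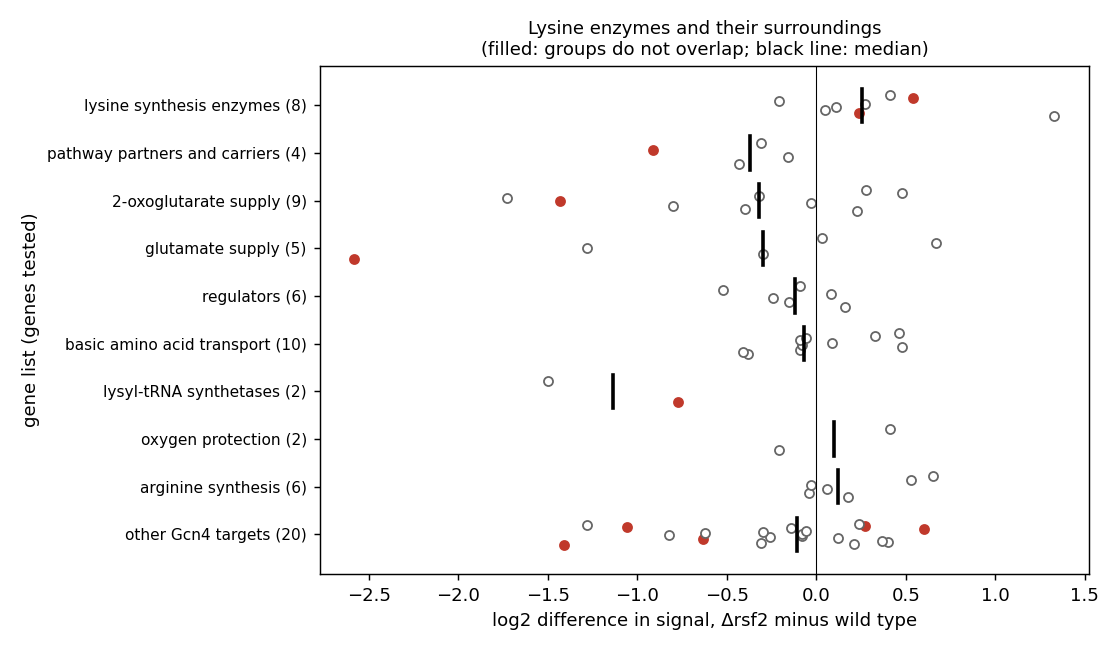
Log2 difference in signal (Δrsf2 minus wild type) of each tested gene in the lysine enzyme list and the surrounding gene lists, 1 circle per gene, filled where the groups do not overlap; the black line is the list's median. The lysine enzymes have a median of 0.25, and the lists of 2-oxoglutarate and glutamate supply have medians of -0.32 and -0.30.

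The mean profile of the 9 lysine genes over the 5 arrays, centred on its own mean, stood at log2 values of 0.30 and 0.26 in Δrsf2 and -0.25, -0.01 and -0.30 in the wild type. The genes with the nearest profiles by root mean square difference over the 5 arrays were FRT1 (0.0593), MET28 (0.0732), RTK1 (0.0898), ASF2 (0.0913) and ARP2 (0.0946). How readily profiles this near arise among so many genes was not tested. Among the members LYS21 was nearest to their mean (0.13) and LYS20 farthest (1.43), followed by LYS5 (1.20). In the Δrsf2 arrays LYS20 stood at 2.67 and -1.07 and LYS5 at -1.74 and 1.49. These opposite deviations partly cancelled in the mean, so it is not a profile that each member shares.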

How the data were processed

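Each of the 5 samples has 1 array. For every probe set the authors deposited a linear signal intensity, and the submitters' processing notes name MAS5 as the tool. Its version, settings and detection calls are not given in the sources used here. Of 9335 probe sets, 6504 had 1 gene in the platform annotation and all of these were found by identifier in RefSeq's R64 gene table, used for names only. Arrays were brought to one 2% trimmed mean, 500, values were floored at 28.1 (the 10th percentile of single-gene probe sets) and log2 was taken. The probe set with the highest mean stood for a gene, and genes under the 25th percentile of mean log2 signal were left out, which left 4242. The groups were compared with limma 3.58.1 in R 4.3.3 (lmFit, eBayes with trend, group as the only term, Benjamini-Hochberg over 4242 genes, threshold 0.05), after a test on simulated data. The number of arrays limits the precision. Nothing beyond the titles says how separate the biological replicates were.

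Groups come from the sample titles. Named genes are the 9 members, every gene of lists with up to 5 genes, the 4 genes of smallest p in longer lists, and the 5 nearest profiles. Members and lists were chosen with earlier results of these data known. The high spike-in set holds arrays whose CreX signal exceeds 10 times the lowest one. Alternatives were other normalisations, floors, filters and probe set choices, each array left out, blocks, no trend and array weights. Sequences were not used here.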

Additional observations from a re-analysis of the deposited data

How the results depend on the processing

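No setting brought a lysine gene past the threshold: over 152 limma adjusted p-values of the members in other settings the lowest was 0.376. LYS14 kept a positive difference in all 18 settings that tested it, from 0.35 (values as deposited) to 3.07 (within the high spike-in set). The other members changed sign as follows. Without rescaling, when all genes had a median of -1.19, LYS21 was at -0.92, LYS4 at -1.11, LYS12 at -1.05, LYS2 at -0.89, LYS9 at -0.62 and LYS1 at -0.75. The lysine median was -0.89 there, 2 of the members were higher, and the list medians were -0.91 for the lysine enzymes, -1.53 for partners, -1.48 for 2-oxoglutarate supply, -1.46 for glutamate supply, -1.28 for regulators, -1.23 for transport, -1.97 for lysyl-tRNA synthetases, -1.06 for oxygen protection, -1.04 for arginine and -1.27 for other Gcn4 targets. The counts of genes at least 2-fold apart without overlap were 0 higher and 1003 lower there, against 75 and 116 in the scaled values. This follows from the lower trimmed mean with which Δrsf2 replicate 1 was deposited. The higher count was 183 with no filter and 25 with a filter at the 50th percentile.

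LYS4 was at -0.01 with median centring, -0.26 with array weights and -0.15 within the low spike-in set. LYS12 was at -0.17 within the high set, LYS2 at -0.06 within the low set and LYS1 at 0 (just below it) within the high set. LYS5 was at 1.03 within the low set and 0.13 with the set as a block. With the replicate number as a block LYS4 was at -0.18, LYS12 at -0.01 and LYS5 at 0.18, and 2 genes of the whole table passed. Same-numbered arrays correlated at 0.27 and -0.09 in their deviations from the group means, and only 2 pairs exist, so the numbers were not taken as pairing. The cause of these changes was not tested.

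Leaving out 1 array at a time moved LYS20 between -0.54 and 3.20, LYS4 between -0.18 and 0.31, LYS12 between -0.01 and 0.22, LYS2 between -0.10 and 0.65, LYS5 between -1.82 and 1.41, LYS1 between -0.41 and 1.23 and LYS9 between 0.33 and 0.74. The lysine median stayed between 0.18 and 0.31. Genes passing limma ran from 0 to 59: 53 without Δrsf2 replicate 1 and 59 without replicate 2, where the lone array is assumed to vary like the wild type. The counts at least 2-fold apart ran from 74 to 443 higher and from 123 to 504 lower. Medians ran from -0.83 to -0.24 for partners, -0.80 to -0.06 for 2-oxoglutarate supply, -0.93 to 0.07 for glutamate supply, -0.50 to 0.16 for regulators, -0.69 to 0.74 for transport, -1.69 to -0.59 for lysyl-tRNA synthetases, -0.63 to 0.83 for oxygen protection, 0.08 to 0.28 for arginine and -0.25 to 0.10 for other Gcn4 targets.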
